A study of Homo sapiens with 6 samples.

Results

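The EGF receptor family was followed here as 10 genes: the receptors EGFR, ERBB2 and ERBB3, the ligands AREG, EREG, HBEGF, TGFA and BTC, and the inhibitors of receptor signaling ERRFI1 and LRIG1. They were chosen by gene symbol from the 53826 entries listed for each library, and each symbol had 1 entry. RNA was sequenced from 6 cultures, with 1 library per condition. The pancreatic ductal adenocarcinoma lines PK-1 and Panc-1, both long established and of human origin, were each kept as the Control or exposed for 24 h to RARγi-1 (LY2955303) or RARγi-2 (MM11253), inhibitors of the retinoic acid receptor RARγ. The doses and the vehicle of these cultures are not given in the sources used here. A treatment entry of both RARγi-2 libraries reads RARγi-1, so these libraries were assigned by their titles. Without replicates no p-value was computed, and the values below compare libraries rather than conditions.

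Receptors of this family are tyrosine kinases that pair on ligand binding and signal to ERK and PI3K. The ligands are made as membrane proteins and are cut from the cell surface by ADAM proteases before they act on the same or on neighbouring cells. ERK signaling in turn induces transcripts of several ligands and of inhibitors that restrain the receptor, and EGFR and its ligands are commonly present in pancreatic ductal carcinoma.

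Levels are given in TPM, the abundance of a transcript per length scaled to the same total in each library, so that genes can be compared within a library. Everything at or under 1 TPM was deposited as 1 TPM, called the floor below, and 13149 to 13652 entries per library lay above it. A fold change is the difference in log2 (TPM + 1) between a treated library and the Control of its line. They understate the change of genes near the floor, and a gene is said to have risen or fallen only past 2-fold. A measure of spread was the difference between the inhibitor libraries of a line, which also holds real differences between the inhibitors: on the scale of a log2 fold change it came to 0.41 for PK-1 and to 0.32 for Panc-1. Both treated libraries of a line share its Control, so their fold changes are not independent.

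The lines matched epithelial carcinoma cells to unequal degrees. KRT8, KRT18 and KRT19 lay between 157 and 6408 TPM in the 6 libraries, EPCAM ranged over 497 to 578 TPM in PK-1 but only 9.18 to 19.4 TPM in Panc-1, and the epithelial cadherin CDH1 was at 170 to 385 TPM in PK-1 but at the floor in Panc-1. The mesenchymal gene ZEB1 was at the floor throughout PK-1, whereas Panc-1 had 8.65 to 14.5 TPM, and VIM was at 41.7, 92.1 and 140 TPM in PK-1 (Control, RARγi-1, RARγi-2) and at 6291, 4049 and 3962 TPM in Panc-1. Of 4 markers of other cell types, PTPRC, PECAM1 and INS were at the floor throughout. The fourth, the acinar gene PRSS1, was at 1.06, 11.1 and 21.2 TPM in the Control, RARγi-1 and RARγi-2 libraries of PK-1 and at the floor in Panc-1. The keratins also moved with treatment in Panc-1, where KRT8, KRT18 and KRT19 fell by 1.99 to 3.21 on the log2 scale over both inhibitors. The part of these marker changes in the results below was not tested. In such bulk RNA, fewer cells that express a gene and less of its RNA per cell cannot be told apart.

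Without inhibitor, the family was far more abundant in PK-1 than in Panc-1. Of the 10 members, 8 were more than 2-fold higher in PK-1 Control, namely all 3 receptors and all 5 ligands, where 14.6% of the 14618 entries tested were higher. Only ERRFI1 was more than 2-fold lower, where 15.7% of entries were lower. The median log2 difference of the members, with genes at the floor in Panc-1 entered at the floor, was 2.07, against -0.03 for all entries.

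EGFR (chr7:55019017-55211628 in GRCh38.p14), which binds all 5 of these ligands, stood at 66.3 TPM in PK-1 Control and 18.9 TPM in Panc-1 Control, a log2 difference of 1.76. ERBB2 (chr17:39688094-39728658), the preferred partner with no known ligand of its own, stood at 56.3 and 11.3 TPM, a log2 difference of 2.22. ERBB3 (chr12:56080108-56103505), a neuregulin receptor with a weak kinase, stood at 21.9 TPM in PK-1 and did not exceed the floor in any Panc-1 library, which makes it at least 21.9-fold higher in PK-1. Panc-1 therefore had transcripts of only EGFR and ERBB2 above 1 TPM, since ERBB4, the fourth receptor, was at the floor in all 6 libraries.

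The ligands had the larger median log2 difference, 4.12 against 2.22 for the receptors, but ranged widely. AREG (amphiregulin, chr4:74445136-74455005) was at 397 TPM in PK-1 Control and at 2.49 TPM in Panc-1 Control, a 160-fold ratio of TPM and a log2 difference of 6.83 that only 0.157% of the 14618 entries exceeded. EREG (epiregulin, chr4:74365145-74388749) was at 49.2 and 1.88 TPM, a log2 difference of 4.12. TGFA (transforming growth factor alpha, chr2:70447284-70553826) and BTC (betacellulin, chr4:74744759-74794523) were at 80.8 and 6.54 TPM in PK-1 Control and at the floor in every Panc-1 library, at least 80.8-fold and 6.54-fold higher in PK-1. The ligand nearest to equal was HBEGF (heparin-binding EGF-like growth factor, chr5:140332843-140346603), at 74.9 TPM in PK-1 Control against 32.2 TPM in Panc-1 Control, a log2 difference of 1.19.

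The inhibitors went the other way or were scarce. ERRFI1 (also called MIG6, chr1:8011727-8026309), a cytoplasmic protein that binds and blocks the EGFR kinase, was at 73.3 TPM in PK-1 Control and 324 TPM in Panc-1 Control, a log2 difference of -2.13. LRIG1 (chr3:66378797-66501121), a membrane protein that promotes receptor degradation, did not exceed the floor in any PK-1 library and reached 1.17 TPM in Panc-1 Control.

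Ordered by level, PK-1 Control had AREG first, 2.28 on the log2 scale above TGFA. TGFA, HBEGF, ERRFI1, EGFR, ERBB2 and EREG followed, with each neighbouring pair closer than the spread, then ERBB3 and BTC. In Panc-1 Control the order was ERRFI1, HBEGF, EGFR, ERBB2, AREG, EREG and LRIG1, and only AREG and EREG lay within the spread of each other. The spread compares the same gene between treated libraries, so it gives only a scale for these gaps between genes and not their error. The lines thus had different leading members, an extracellular ligand in PK-1 and an intracellular inhibitor in Panc-1.

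**Figure D1:**
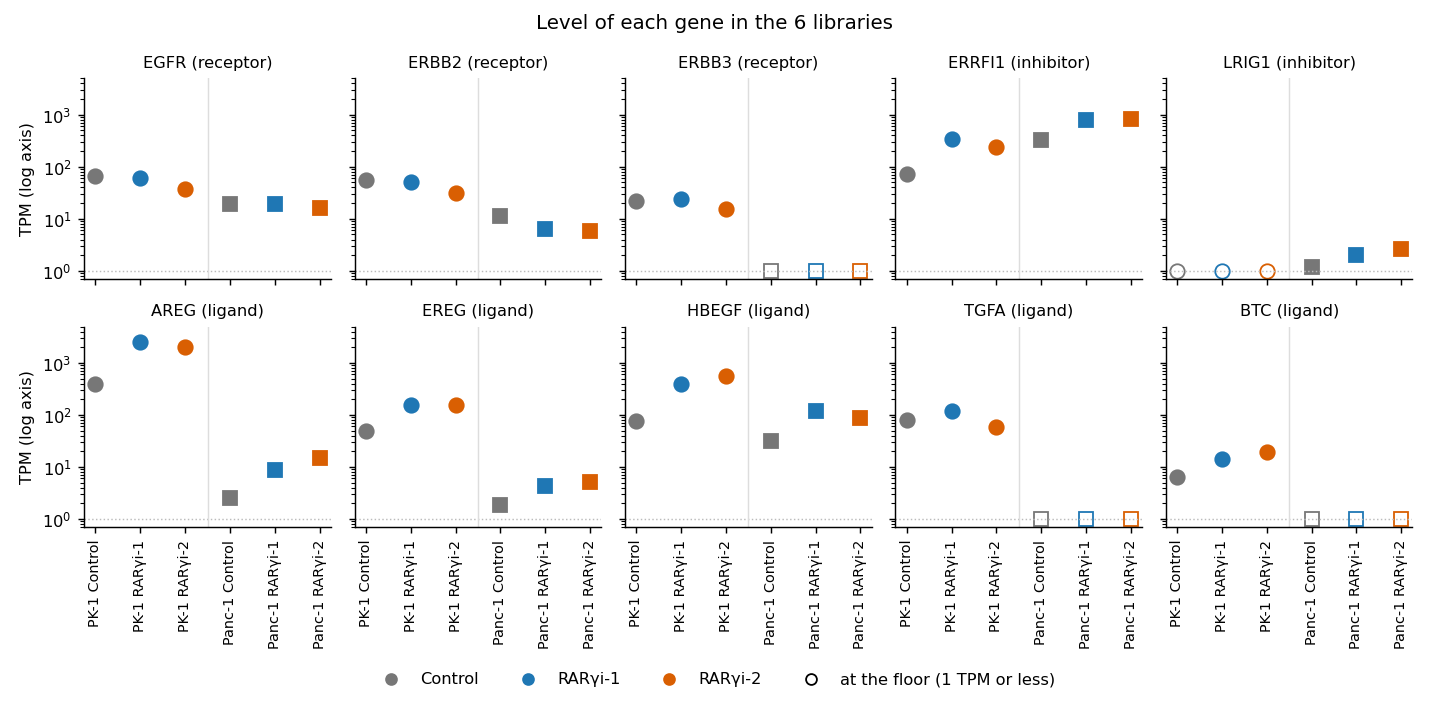
Level of each of the 10 genes in the 6 libraries, in TPM on a log axis, with PK-1 as circles, Panc-1 as squares, colour for the treatment and open symbols for values at the floor of 1 TPM or less. AREG rose from 397 to 2517 and 1995 TPM in PK-1, while no Panc-1 library had ERBB3, TGFA or BTC above the floor.

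After 24 h of inhibitor, several ligand transcripts and ERRFI1 rose in both lines, and no member fell past 2-fold. In PK-1, 9 members were above the floor in at least 1 of the libraries compared. With RARγi-1, AREG, EREG, HBEGF, BTC and ERRFI1 rose, 5 members of 9, where 9.25% of the 13965 entries tested rose and 4.96% fell. In RARγi-2-treated PK-1 cells 5 of 9 rose, where 12.1% of the 14028 entries tested rose and 12.6% fell. In Panc-1, 7 members were above the floor. With RARγi-1, 3 of the 7 rose (AREG, HBEGF and ERRFI1), where 7.40% of the 14004 entries rose and 6.03% fell. With RARγi-2, EREG also rose, giving 4 of 7, where 8.50% of the 13921 entries rose and 11.2% fell. By the median, members in PK-1 had log2 fold changes of 1.02 and 1.43 (RARγi-1 first), beside 0.15 and 0.03 for all entries tested. In Panc-1 the medians were 0.87 and 1.08, beside 0.09 and -0.03. The members, and the gene lists below, were chosen with earlier results of these data known. The values of all entries therefore describe the libraries and do not test the counts or medians set beside them.

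The rise was in the ligands rather than the receptors. In PK-1 the ligands had a median log2 fold change of 1.66 with each inhibitor, where the receptors had -0.14 with RARγi-1 and -0.81 with RARγi-2. In Panc-1 the medians of the ligands above the floor were 1.5 and 1.39, where those of the receptors were -0.34 and -0.53.

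**Figure D2:**
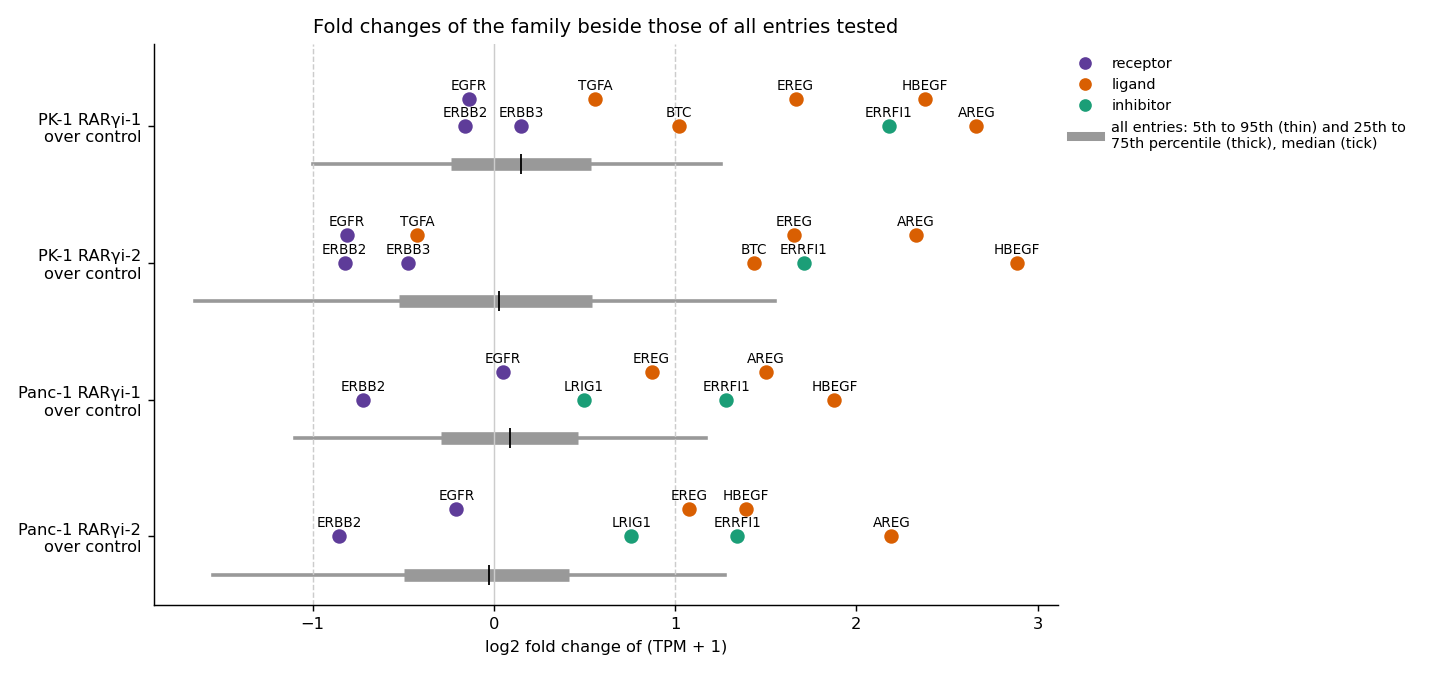
Log2 fold changes over control of the members above the floor, coloured by role and offset vertically only for legibility, above a grey bar for all entries tested (5th to 95th and 25th to 75th percentiles, with the median as a tick). AREG, HBEGF and ERRFI1 lie right of the dashed 2-fold line in every comparison, and the receptors lie between -0.86 and 0.15.

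No receptor transcript passed 2-fold in any treated library. EGFR was at 66.3, 60.2 and 37.4 TPM in PK-1 (Control, RARγi-1, RARγi-2), log2 fold changes of -0.14 and -0.81, and at 18.9, 19.6 and 16.2 TPM in Panc-1, log2 fold changes of 0.05 and -0.21. Only the RARγi-2 library of PK-1 differed from its Control by more than the spread. An antisense entry of the locus, EGFR-AS1, was at the floor in all 6 libraries.

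ERBB2 was at 56.3, 50.4 and 31.4 TPM in PK-1, log2 fold changes of -0.16 and -0.82, and at 11.3, 6.46 and 5.79 TPM in Panc-1, log2 fold changes of -0.72 and -0.86. It was lower by more than the spread in 3 of the 4 treated libraries, but in none past 2-fold. ERBB3 was at 21.9, 24.5 and 15.5 TPM in PK-1, log2 fold changes of 0.15 and -0.47. Summed over the 3 receptors, TPM above the floor went from 145 to 135 and 84.3 in PK-1, log2 changes of -0.10 and -0.77. In Panc-1 the sum went from 30.2 to 26.1 and 22.0, log2 changes of -0.21 and -0.44.

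AREG, a ligand selective for EGFR, was at 397 TPM in PK-1 Control, and the RARγi-1 and RARγi-2 libraries had 2517 and 1995 TPM. Both treated libraries lay far above the Control, at log2 fold changes of 2.66 and 2.33, or 6.34-fold and 5.03-fold in TPM. By level, AREG moved from place 347 among 13149 entries above the floor to place 41 of 13652 and place 69 of 13488. In Panc-1 it was at 2.49, 8.86 and 14.9 TPM, log2 fold changes of 1.5 and 2.19. The treated Panc-1 libraries thus stayed below the untreated PK-1 library by a wide margin. The share of entries tested with a higher fold change was 0.415% and 1.53% for the treated PK-1 libraries, then 2.45% and 1.06% for those of Panc-1.

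EREG, which activates EGFR and ERBB4, was at 49.2, 158 and 157 TPM in PK-1, a log2 fold change of 1.66 with each inhibitor. In Panc-1 it was at 1.88, 4.26 and 5.08 TPM, log2 fold changes of 0.87 and 1.08, so that only the RARγi-2 value passed 2-fold. Without a pseudocount the RARγi-1 value in Panc-1 was 1.18, past 2-fold.

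HBEGF, which also binds heparan sulfate and serves as the receptor of diphtheria toxin, was at 74.9, 394 and 560 TPM in PK-1, log2 fold changes of 2.38 and 2.89. In Panc-1 it was at 32.2, 121 and 86.2 TPM, log2 fold changes of 1.88 and 1.39. Among the members it had the highest fold change in RARγi-2-treated PK-1 cells and in RARγi-1-treated Panc-1 cells, and AREG had it in the other treated libraries. The share of entries with a higher fold change was lowest, 0.702%, in RARγi-1-treated PK-1 cells and highest, 4.10%, in RARγi-2-treated Panc-1 cells.

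BTC, a ligand of EGFR and ERBB4, was at 6.54, 14.3 and 19.4 TPM in PK-1, log2 fold changes of 1.02 and 1.43. The first lies at the limit: rescaling the libraries by median ratios, which shifted fold changes of that comparison by -0.13, left 0.90. TGFA was at 80.8, 120 and 59.9 TPM in PK-1, log2 fold changes of 0.56 and -0.43. Among the ligand members it alone did not pass 2-fold in either treated PK-1 library, and its treated values lay on opposite sides of the Control.

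ERRFI1 was at 73.3, 336 and 242 TPM in PK-1, log2 fold changes of 2.18 and 1.71, and at 324, 791 and 824 TPM in Panc-1, log2 fold changes of 1.28 and 1.34. RARγi-1-treated PK-1 cells thus had an ERRFI1 level near that of untreated Panc-1 cells, and RARγi-2-treated PK-1 cells had a lower one. LRIG1 was at 1.17, 2.05 and 2.66 TPM in Panc-1, log2 fold changes of 0.50 and 0.76, and at the floor in PK-1. Close to the floor the pseudocount matters, and without it the RARγi-2 value was 1.19, past 2-fold.

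The line difference persisted under treatment. With RARγi-1, 8 members were more than 2-fold higher in PK-1 and 1, ERRFI1, lower, where 16.3% of the 14986 entries tested were higher and 14.9% lower. With RARγi-2 the counts were again 8 and 1, where 16.2% of the 14721 entries were higher and 16.1% lower. AREG was 284-fold higher in PK-1 by TPM with RARγi-1 and 133-fold higher with RARγi-2, against 160-fold in the Controls. For ERRFI1 the log2 differences were -1.23 and -1.76, against -2.13 in the Controls.

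Each line had its own mixture of ligand transcripts. Over 7 ligands of EGFR (the 5 members with EPGN and EGF), the summed TPM above the floor was 619 in PK-1 Control, 3278 with RARγi-1 and 2848 with RARγi-2, which is 5.29 and 4.60 times the Control. In Panc-1 it was 36.6, 134 and 106, which is 3.67 and 2.90 times the Control. AREG made up 64.1%, 76.8% and 70.0% of the sum in PK-1, whereas HBEGF made up 88.1%, 90.2% and 81.2% in Panc-1. The share of TGFA in PK-1 went from 13.1% to 3.65% and 2.10%. The sum counts transcripts only and does not give the amount of ligand shed.

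**Figure D3:**
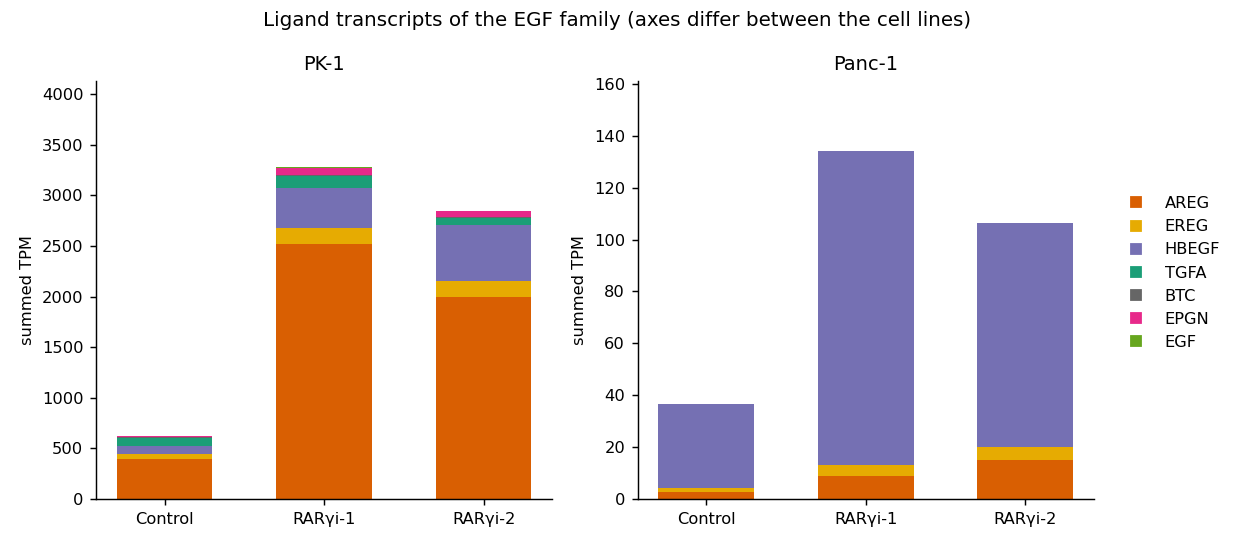
Summed TPM of 7 EGF receptor ligands in each library, stacked by gene, with values at the floor counted as 0 and separate axes for the lines. The sum rose from 619 to 3278 and 2848 TPM in PK-1, mostly as AREG, and from 36.6 to 134 and 106 TPM in Panc-1, mostly as HBEGF.

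Among 7 other genes of the family, EPGN and NRG1 passed 2-fold over control. EPGN (epigen, another EGFR ligand) was at 9.81, 72.4 and 54.8 TPM in PK-1, log2 fold changes of 2.76 and 2.37, and at the floor in Panc-1. NRG1 (neuregulin 1, a ligand of ERBB3 and ERBB4) was at 6.66, 13.8 and 23.3 TPM in Panc-1, log2 fold changes of 0.95 and 1.67, and at 16.5 to 20.4 TPM in PK-1. EPGN was the 1 of 5 genes above the floor that rose in each PK-1 comparison, and NRG1 the 1 of 3 that rose with RARγi-2 in Panc-1. Among all entries, 9.25% and 12.1% rose in the PK-1 comparisons and 8.50% with RARγi-2 in Panc-1. A count of 1 in so short a list cannot be set apart from these shares. NRG2, another neuregulin, lay at the limit with RARγi-2 in Panc-1, at 11.2 TPM in the Control and 5.08 TPM in the treated library, just short of 2-fold on the log2 (TPM + 1) scale. EGF itself reached no more than 2.81 TPM in any library, and ERBB4 and NRG3 were at the floor in all of them.

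The upstream windows of the 4 members that rose in most comparisons are shown for their sequence, as 250 bases before the RefSeq start site in GRCh38.p14, 5′ to 3′ on the strand of the gene, with motif matches in capitals. RefSeq windows were at hand for 9 of the 10 members, all but ERBB3. The motifs searched on both strands were the cAMP response element TGACGTCA, the AP-1 site TGACTCA, the TEAD site GGAATG, the TATA box TATAAA, the ATF4 element TGATGCAA and the nuclear receptor hexamer AGGTCA. None of these overlaps another by its letters within the windows shown, and they were chosen with the windows in view.

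AREG (chr4:74444886-74445135, plus strand): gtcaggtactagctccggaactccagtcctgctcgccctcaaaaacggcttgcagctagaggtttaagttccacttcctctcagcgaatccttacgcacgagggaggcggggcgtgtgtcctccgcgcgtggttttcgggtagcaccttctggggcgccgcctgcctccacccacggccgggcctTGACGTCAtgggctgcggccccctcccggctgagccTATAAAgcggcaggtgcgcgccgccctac
EREG (chr4:74364895-74365144, plus strand): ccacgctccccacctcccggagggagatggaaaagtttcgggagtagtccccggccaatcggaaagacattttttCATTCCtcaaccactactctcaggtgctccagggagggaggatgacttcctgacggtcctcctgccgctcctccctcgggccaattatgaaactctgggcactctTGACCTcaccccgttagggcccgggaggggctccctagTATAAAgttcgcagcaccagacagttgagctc
HBEGF (chr5:140346604-140346853, minus strand): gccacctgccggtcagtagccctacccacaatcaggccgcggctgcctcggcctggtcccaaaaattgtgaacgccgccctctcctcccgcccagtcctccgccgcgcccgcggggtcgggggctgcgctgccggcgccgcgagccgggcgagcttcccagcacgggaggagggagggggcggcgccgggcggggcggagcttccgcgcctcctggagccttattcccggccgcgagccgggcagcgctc
ERRFI1 (chr1:8026310-8026559, minus strand): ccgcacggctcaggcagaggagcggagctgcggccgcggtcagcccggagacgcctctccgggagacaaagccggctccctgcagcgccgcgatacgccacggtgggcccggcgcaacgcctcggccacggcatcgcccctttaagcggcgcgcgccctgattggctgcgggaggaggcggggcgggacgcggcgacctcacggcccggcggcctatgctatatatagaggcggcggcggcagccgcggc

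The AREG window held TGACGTCA, starting 65 bases before the start site, and TATAAA, starting 29 bases before it. The EREG window held CATTCC at 175 bases and TGACCT at 70 bases, which read GGAATG and AGGTCA on the other strand, and TATAAA at 32 bases. Over 35116 windows of the same length, TGACGTCA or its reverse complement was present in 1.65%, TATAAA in 10.7%, GGAATG in 11.9% and AGGTCA in 12.1%. The HBEGF and ERRFI1 windows held none of the 6 motifs in these exact letters. Variant forms were not searched, such as the tatatata near the end of the ERRFI1 window, so a window without TATAAA may still hold a similar stretch. The window of BTC, which lies beside AREG, also held none. Elsewhere in the family, the windows of a downstream start site of EGFR and of LRIG1 held TGACTCA, which was present in 4.2% of windows. That EGFR window also held CATTCC and, at 146 and 36 bases, TATAAA, and that LRIG1 window also held TGACCT. TGATGCAA, present in 0.772%, was in no member's window. These matches describe letters and were not tested as sites. The windows of HBEGF and ERRFI1 were rich in G and C, at 76.4% and 75.2%, against 65.2% for AREG and 58% for EREG.

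EPGN, EREG, AREG and BTC lie in this order on chromosome 4 (chr4:74308470-74794523), within 486054 bases. All 4 rose with each inhibitor in PK-1, except that BTC with RARγi-1 was under 2-fold (0.90) after rescaling. In Panc-1, where EPGN and BTC were at the floor, 1 of 2 rose with RARγi-1 and 2 of 2 with RARγi-2. Of the other genes within 1000000 bases on either side, 2 of 8 above the floor rose with RARγi-1 and 3 of 9 with RARγi-2 in PK-1, and 0 of 10 rose and 1 fell with each inhibitor in Panc-1. Of all entries, 9.25% and 12.1% rose in the PK-1 comparisons, and 6.03% and 11.2% fell in those of Panc-1, so that 1 of 10 is near the background. Those that rose in PK-1 were the neutrophil chemokine gene CXCL2 (2.96, 23.1 and 29.2 TPM, log2 fold changes of 2.60 and 2.93), PARM1 (from the floor to 3.39 and 10.1 TPM, log2 fold changes over the floor of 1.14 and 2.47) and, with RARγi-2 only, CXCL8 (log2 fold changes of 0.87 and 1.86). The gene that fell in Panc-1 was the related CXCL1, at 18.6, 5.04 and 2.69 TPM. G3BP2, at the far end, had log2 fold changes between -0.25 and 0.01.

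**Figure D4:**
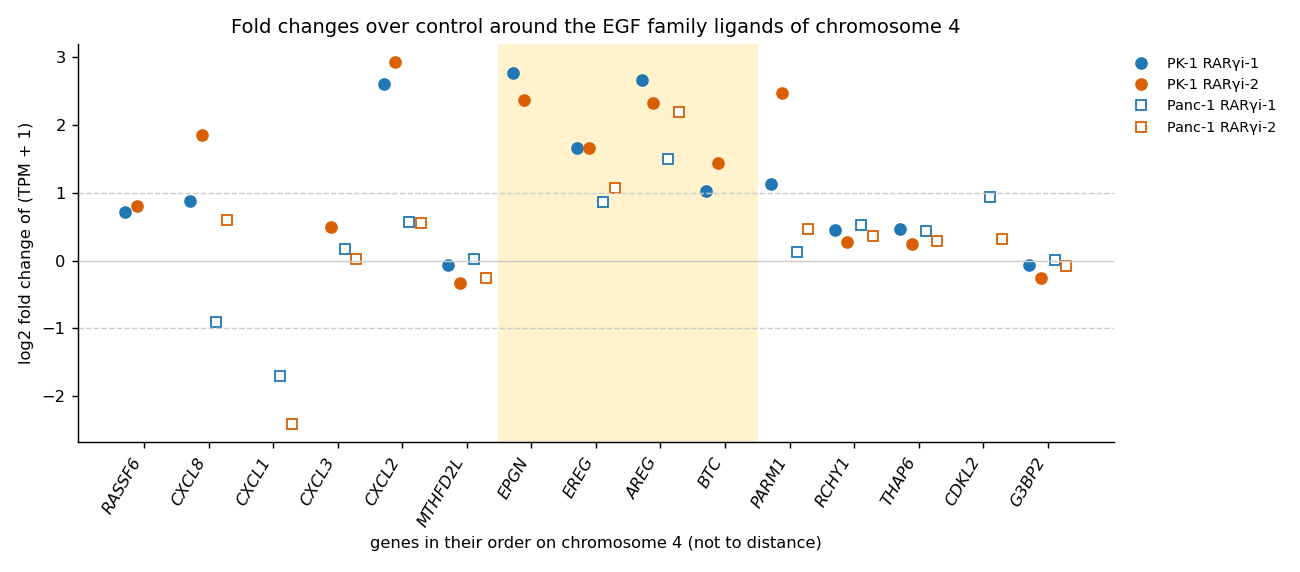
Log2 fold changes over control of the genes above the floor around the ligand genes of chromosome 4 (shaded), in their order and not to distance, with PK-1 as filled circles, Panc-1 as open squares, and dashed lines at 2-fold. The shaded genes lie above the upper dashed line in both PK-1 comparisons, BTC with RARγi-1 only just (1.02, and 0.90 after rescaling), and CXCL2 (2.60 and 2.93) and PARM1 (1.14 and 2.47) do so outside the shading.

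Proteases that release the ligands, with their regulators (among them the ADAM inhibitor TIMP3), were listed together. Of 9 listed, 8 of them exceeded the floor for PK-1 and 7 for Panc-1. In each comparison ADAM17 was the only gene that rose. The shares of all entries that rose were 9.25% and 12.1% for PK-1 and 7.40% and 8.50% for Panc-1. Those that fell were 4.96% and 12.6% for PK-1 and 6.03% and 11.2% for Panc-1. A count of 1 in a list of 7 or 8 genes cannot be set apart from these shares. ADAM17, the main sheddase of AREG, EREG, HBEGF and TGFA, was at 40.0, 84.0 and 104 TPM in PK-1 and at 21.6, 74.1 and 97.0 TPM in Panc-1. These are log2 fold changes of 1.05 and 1.35 for PK-1, then 1.74 and 2.12 for Panc-1. ADAM19, a related protease, fell with RARγi-2 in PK-1 and with both inhibitors in Panc-1, at log2 fold changes of -1.93 (to the floor), -1.18 and -2.73, and was at -0.75 with RARγi-1 in PK-1. ADAM9 fell with RARγi-2 in PK-1, at -1.16. ADAM10, which sheds BTC and EGF, was lower in each treated library without passing 2-fold, at 92.3, 75.1 and 46.1 TPM in PK-1, log2 fold changes of -0.29 and -0.99, and at log2 fold changes of -0.37 and -0.58 in Panc-1. The median of the list was -0.29 and -0.65 for PK-1 (RARγi-1 first), then -0.37 and -0.59 for Panc-1.

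Of 14 adaptors and effectors of the receptors, none passed 2-fold with RARγi-1 in either line, although PIK3R1 in Panc-1 was at the limit (4.99 and 2.01 TPM, a log2 fold change of -0.99). In these comparisons 9.25% of all entries rose and 4.96% fell for PK-1, and 7.40% rose and 6.03% fell for Panc-1. The absence of calls in so short a list cannot be set apart from these shares. With RARγi-2, 1 rose and 3 fell among 14 in PK-1, where 12.1% of all entries rose and 12.6% fell, and among 13 in Panc-1, where 8.50% rose and 11.2% fell. The gene that rose was SOS2, a guanine nucleotide exchange factor, from 8.89 to 25.1 TPM in PK-1, and from 8.59 to 18.8 TPM in Panc-1. PLCG1, the phospholipase recruited to active receptors, fell by 1.70 and by 1.14 on the log2 scale, and PIK3R1, the regulatory subunit of PI3K, fell by 1.07 and by 1.13. VAV2 also fell in PK-1 and STAT3 in Panc-1. List medians were 0.10, -0.14, 0.04 and -0.14, near those of all entries.

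Of 20 genes of receptor turnover and restraint, 3 rose with RARγi-1 and 2 with RARγi-2 in PK-1, 3 rose with each inhibitor in Panc-1, and only LRIG3 fell, with RARγi-2 in PK-1. Of all entries, 9.25% and 12.1% rose in the PK-1 comparisons and 7.40% and 8.50% in those of Panc-1, so that a count of 2 of 20 is under the background of its comparison. The shares of all entries that fell were 4.96% and 12.6% for PK-1 and 6.03% and 11.2% for Panc-1. CBLB, a ubiquitin ligase that targets active receptors, rose in each treated library: it was at 2.44, 7.12 and 10.5 TPM in PK-1, log2 fold changes of 1.24 and 1.74, and at 1.74, 6.59 and 10.5 TPM in Panc-1, log2 fold changes of 1.47 and 2.07. SH3KBP1, an adaptor that links CBL proteins to endocytosis, rose in PK-1 only at log2 fold changes of 1.21 and 1.24, and was at 0.27 and -0.25 in Panc-1. CBL itself rose in Panc-1 at 1.35 and 1.04 and was at 10.4, 13.6 and 10.4 TPM in PK-1. RNF41, a ubiquitin ligase of ERBB3, rose in Panc-1 at 1.36 and 1.10, where ERBB3 was at the floor. List medians were 0.22, -0.03, -0.01 and -0.10.

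Transcripts that ERK signaling is known to induce rose in part. In the study's own Western blots of both lines after 24 h of inhibitor, neither ERK protein nor its phosphorylation was significantly lower. Transcripts alone do not measure ERK activity, which was not tested here. Of 12 listed, 5 rose with RARγi-1 and 4 with RARγi-2 in PK-1 and none fell, to be read beside the background shares given above. Of 11 above the floor in Panc-1, 4 rose with RARγi-1, where 7.40% of all entries rose. With RARγi-2, 3 rose and 1, ETV4, fell, where 8.50% of all entries rose and 11.2% fell. DUSP5, a nuclear phosphatase of ERK, was at 97.8, 409.6 and 429.6 TPM in PK-1, log2 fold changes of 2.06 and 2.12. In Panc-1 it was at 51.0, 379 and 202 TPM, log2 fold changes of 2.87 and 1.97. The ETS factor gene ETV5 rose by 1.43 with RARγi-1 and 1.75 with RARγi-2 in PK-1, and by 2.02 with each in Panc-1. For the immediate early gene EGR1 the rise was 2.67 and 1.67 in PK-1, then 1.53 and 1.02 in Panc-1. Others passed 2-fold in part of the libraries: PHLDA1 in PK-1, DUSP6 in PK-1 with RARγi-1, and SPRY4 in Panc-1 with RARγi-1. The list had medians of 0.81 and 0.52 for PK-1, then 0.88 and -0.04 for Panc-1, so that in RARγi-2-treated Panc-1 cells the list as a whole lay at the median of all entries.

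**Figure D5:**
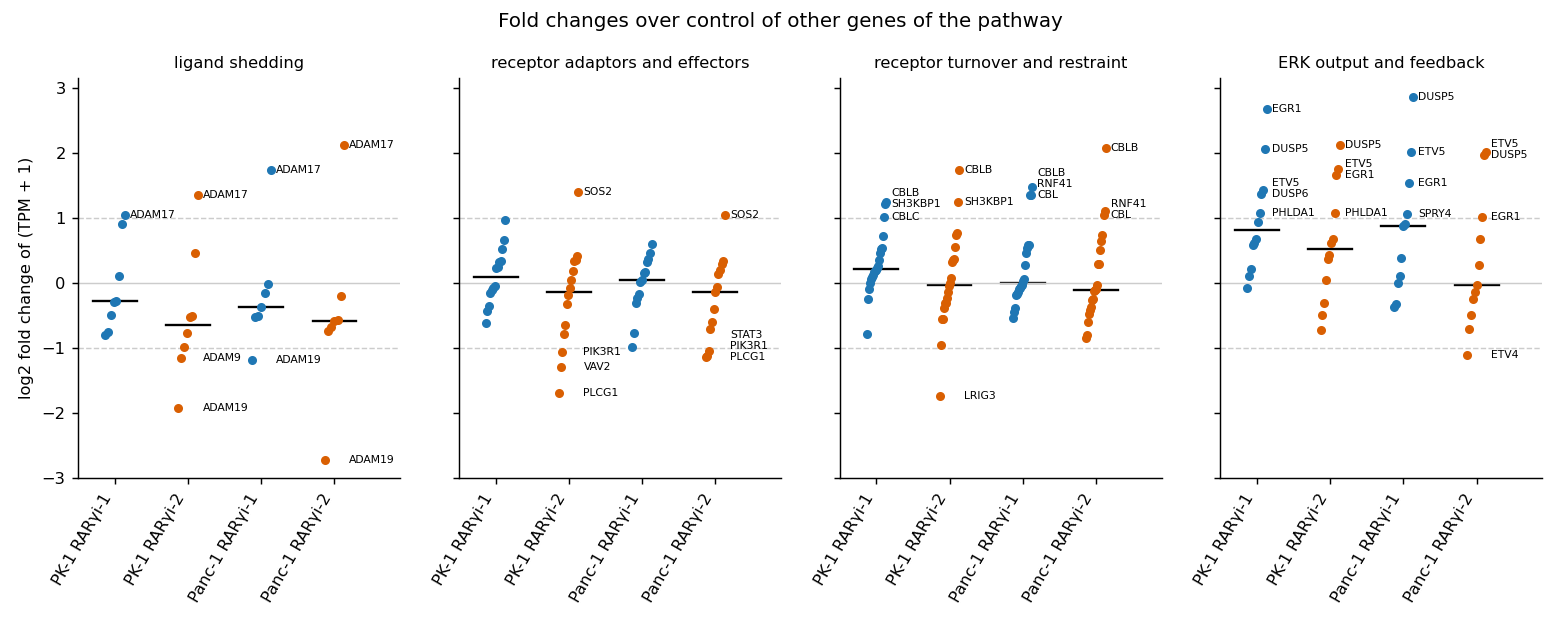
Log2 fold changes over control of other genes of the pathway in 4 lists, 1 point per gene above the floor, with a black line at the median of the list and names for genes past the dashed 2-fold lines. ADAM17 and CBLB passed 2-fold in every comparison, as did DUSP5, ETV5 and EGR1 in the ERK list, whose median was 0.81, 0.52, 0.88 and -0.04.

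Likeness of pattern was measured as the Euclidean distance between centred log2 (TPM + 1) values over the 6 libraries, among the 10628 entries that reached 10 TPM in some library, for AREG, HBEGF and ERRFI1. The nearest to AREG was CSTA (cystatin A), at a distance of 1.28, with 168, 496 and 482 TPM in PK-1 and the floor, 3.06 and 3.83 TPM in Panc-1. SPRR1B (1.82) and AKR1C3 (1.91) came next, both at the floor in Panc-1. Within the family, TGFA and EREG were nearest to AREG, in places 69 and 71, at distances of 3.45 and 3.46. Such a distance holds the difference between the lines as well as the changes over control. TGFA came nearest although its log2 fold changes in PK-1 were 0.56 and -0.43, against 2.66 and 2.33 for AREG.

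HBEGF had closer neighbours. GPCPD1 (0.52) was at 18.6, 84.9 and 146 TPM in PK-1 and 5.06, 34.0 and 21.0 TPM in Panc-1, and ARG2 (0.65) and SYT7 (0.66) followed. The nearest to ERRFI1 were CBSL (0.35), OPLAH (0.37) and SNORD38A (0.46). OPLAH and SNORD38A were near the floor in PK-1 Control, at 2.45 and 1.12 TPM, which makes their distances less certain. CBSL is a near-identical copy of CBS, and how reads were divided between them is not given in the sources used here, so its values are uncertain. No other member came nearer than place 504 to HBEGF or place 1918 to ERRFI1.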

How the data were processed

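RNA was isolated with Trizol and libraries were made with a TruSeq stranded kit. The authors deposited, for each of the 6 libraries, log2 TPM values per Entrez gene, with values under 1 TPM raised to 1 TPM; no value lies under 0 on the log2 scale. The submitters' processing notes name hg38. The aligner, counter, strand setting and annotation are not given in the sources used here. Sequencing depth is unknown from TPM, and intervals were not computed.

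The deposited values were raised back to TPM. A fold change is the difference in log2 (TPM + 1), taken for entries above 1 TPM in a library of the pair and called past 2-fold. The spread is a robust standard deviation (1.4826 times the median absolute deviation) of the differences between a line's inhibitor libraries, for entries that reached 5 TPM in the line. No p-value was computed. Members are named in full. Listed genes are named where they passed 2-fold in all 4 comparisons or show a count. ADAM10, G3BP2, EGF, ERBB4, NRG2 and NRG3 were added with their values known. The members and lists were chosen with earlier results of these data known. Names, coordinates and upstream sequences came from RefSeq (GRCh38.p14). Alternatives were other pseudocounts, filters, thresholds and a rescaling by median ratios. The code (Python 3.11.15, pandas 2.3.3, NumPy 2.4.6) was tested on simulated data.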

Additional observations from a re-analysis of the deposited data

Results flagged for a closer look

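VIM, a mesenchymal filament gene and not a family member, was the only one of the 83 genes looked at whose log2 fold changes went one way in both treated libraries of PK-1 (1.13 and 1.72) and the other way in both of Panc-1 (-0.64 and -0.67) by more than the spread. Each line has 1 Control and the difference was not tested. How many of all entries meet the same rule was not counted, so it is not known how unusual this is.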

How the results depend on the processing

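No called value changed sign. EGFR in RARγi-1-treated Panc-1 cells, within the spread at 0.05, was at -0.05 on rescaling by median ratios. All 42 fold changes moved by less than the spread on this rescaling, which took BTC in RARγi-1-treated PK-1 cells under 2-fold (0.90). Other moves were those of genes near or at the floor in Panc-1. Without a pseudocount and with a pseudocount of 0.1, respectively, AREG in Panc-1 was at 1.83 and 1.79 with RARγi-1 and at 2.59 and 2.54 with RARγi-2. EREG in Panc-1 was at 1.18 and 1.14 with RARγi-1, now past 2-fold, and at 1.43 and 1.39 with RARγi-2. LRIG1 in Panc-1 was at 0.82 and 0.77 with RARγi-1 and, now past 2-fold, at 1.19 and 1.13 with RARγi-2. For PK-1 Control over Panc-1 Control, ERBB3 was at 4.45 and 4.32, AREG at 7.32 and 7.26, EREG at 4.71 and 4.64, TGFA at 6.34 and 6.20 and BTC at 2.71 and 2.59.

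At a threshold of 1.5-fold, 2 members fell with RARγi-2 in PK-1 and 1 with each inhibitor in Panc-1, where none did at 2-fold. At 3-fold, 1 member rose with each inhibitor in Panc-1. The shares of all entries past 1.5-fold or 3-fold were not computed, so these counts cannot be set against a background. Without a filter, which adds entries at the floor in both libraries, the percent of entries up and down was 2.4 and 1.29 with RARγi-1 and 3.16 and 3.27 with RARγi-2 for PK-1, 1.92 and 1.57 with RARγi-1 and 2.2 and 2.9 with RARγi-2 for Panc-1, and 3.96 and 4.27 between the Controls.

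Each line was compared within itself. A fit over both lines with the line as a block was not run, and neither was leaving out a library, as each condition has 1. A sum of AREG with AREGB was not run, as AREGB is not among the symbols used here. Values near 1 TPM rest on a depth that is unknown.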
